A study of Mus musculus with 4 samples.

Results

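Very broad open regions are stretches of chromatin over which the transposase of ATAC-seq reached the DNA along more than 2000 bp without a break in the called peak. Most open regions in these libraries were far narrower. Every peak wider than 2000 bp in any of 4 peak lists was taken, overlapping ones were merged at 1 bp, and merged regions on chromosomes 1 to 19 were kept. This gave 45 regions of the 82641 in the atlas made by merging all peaks of the 4 libraries. They spanned 106.3 kb in total, lay on 17 chromosomes and had merged widths from 2003 to 4477 bp, with a median of 2209 bp. The members were thus chosen by peak width in these same lists, and widths are given below as a description without a test.

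ATAC-seq had been performed on EpCam+CD49f high epidermal keratinocytes, the main cells of the epidermis, sorted from young adult female mice on a C57BL/6 background. All animals, controls included, had received a cream with 5% imiquimod (Aldara) on the skin for 8 days, which inflames it, and there was no untreated group. WT mice (2 libraries) were compared with Mapk8-KO mice (2 libraries), in which a floxed Mapk8 gene was deleted by a Cre recombinase under the keratin 14 promoter, so that the kinase JNK1 was missing from keratinocytes while other skin cells kept it. The labels give whole skin as the source and keratinocytes as the cell type, and do not say whether libraries came from separate mice. The study calls the 2 ATAC-seq samples of each group independent, without saying that they were separate mice. The p values measure only the spread between these libraries.

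Open promoters in mammals usually show 1 nucleosome-free stretch just upstream of the transcription start site (TSS), bounded by positioned nucleosomes. At CpG islands, where CG dinucleotides are dense and mostly unmethylated, opening can reach further, and start sites of both strands often share an island. Ribosomal DNA, nuclear copies of mitochondrial DNA and tandem repeats are present in many copies, and are known to gather reads in assays of this kind.

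Windows at the strongest summit of the 3 widest regions with a TSS and the 3 widest without one are shown as examples. Each window is 200 bases of mm10 on the plus strand. The widest region held 6 mitochondrial-like pseudogenes from Gm10222 to Gm28661 (window at chr1:24612669-24612868). The next held the noncoding genes Gm26917 and Gm42418 (chr17:39845363-39845562), and the third the promoter of Ppp2r3d, a regulatory subunit of protein phosphatase 2A (chr9:124423750-124423949). Capitals mark the SP/KLF word GGGCGG or its complement CCGCCC, which occurs only in the second of these windows.
Gm10222 to Gm28661: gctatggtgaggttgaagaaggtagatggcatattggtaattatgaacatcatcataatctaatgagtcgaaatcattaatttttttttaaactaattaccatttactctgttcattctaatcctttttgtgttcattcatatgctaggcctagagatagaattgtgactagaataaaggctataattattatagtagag
Gm26917/Gm42418: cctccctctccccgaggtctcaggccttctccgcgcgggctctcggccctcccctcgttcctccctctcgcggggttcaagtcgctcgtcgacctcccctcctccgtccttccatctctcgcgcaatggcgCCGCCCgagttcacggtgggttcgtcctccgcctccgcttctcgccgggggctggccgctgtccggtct
Ppp2r3d: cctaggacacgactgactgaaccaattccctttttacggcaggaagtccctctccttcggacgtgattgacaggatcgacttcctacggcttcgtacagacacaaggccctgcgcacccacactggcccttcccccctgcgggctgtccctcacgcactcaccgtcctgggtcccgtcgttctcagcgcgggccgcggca

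The 3 widest regions without a TSS were repeats of short units. They lay in an intron of Stam2 (chr2:52697494-52697693), in an intron of 2700054A10Rik (chr17:13550945-13551144) and 2703 bp from the pseudogene Gm5626 (chr13:74528901-74529100). In the Stam2 window capitals mark 1 unit of 54 bases, which then repeats. In the other windows they mark TGCTG or CAGCA, which are the same word read on opposite strands.
Within Stam2: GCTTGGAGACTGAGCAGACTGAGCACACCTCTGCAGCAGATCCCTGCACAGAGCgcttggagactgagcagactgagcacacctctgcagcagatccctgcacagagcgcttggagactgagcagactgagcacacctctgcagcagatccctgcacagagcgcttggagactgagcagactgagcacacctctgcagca
Within 2700054A10Rik: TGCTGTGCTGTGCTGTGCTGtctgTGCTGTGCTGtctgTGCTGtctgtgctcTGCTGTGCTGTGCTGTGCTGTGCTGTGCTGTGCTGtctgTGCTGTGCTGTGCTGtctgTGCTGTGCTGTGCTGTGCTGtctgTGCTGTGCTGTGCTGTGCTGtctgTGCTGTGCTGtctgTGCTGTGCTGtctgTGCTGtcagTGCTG
Near Gm5626: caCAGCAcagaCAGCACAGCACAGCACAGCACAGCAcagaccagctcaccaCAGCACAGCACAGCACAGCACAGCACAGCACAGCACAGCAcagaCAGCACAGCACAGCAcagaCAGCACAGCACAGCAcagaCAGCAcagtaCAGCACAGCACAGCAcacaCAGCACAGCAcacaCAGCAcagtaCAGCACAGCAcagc

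Promoters of single-copy genes made up most of the other regions. Those of Egfr, the epidermal growth factor receptor, of Thrb, the thyroid hormone receptor beta, and of Plxnb1, a semaphorin receptor, are printed as examples, from RefSeq on GRCm38.p6, the assembly that mm10 denotes. The stretches end before any annotated UTR and lie at chr11:16752003-16752202, chr14:17660760-17660895 and chr9:109095236-109095388, all on the plus strand. Capitals mark GGGCGG or CCGCCC.
Egfr: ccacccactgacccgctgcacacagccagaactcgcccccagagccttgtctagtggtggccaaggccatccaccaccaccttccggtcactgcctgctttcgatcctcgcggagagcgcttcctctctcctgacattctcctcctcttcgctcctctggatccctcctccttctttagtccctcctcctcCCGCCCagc
Thrb: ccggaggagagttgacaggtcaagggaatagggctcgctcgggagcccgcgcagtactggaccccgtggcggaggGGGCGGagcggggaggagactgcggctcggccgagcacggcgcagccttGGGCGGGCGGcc
Plxnb1: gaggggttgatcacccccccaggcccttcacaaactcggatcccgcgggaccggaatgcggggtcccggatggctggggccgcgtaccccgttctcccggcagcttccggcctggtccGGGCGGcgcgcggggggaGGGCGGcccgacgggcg

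In what follows, 4 values in a row stand for WT 1, WT 2, Mapk8-KO 1 and Mapk8-KO 2, in that order. The 4 peak lists held 49856 to 69927 intervals with a median width of 367 to 392 bp. Depth, recovered from the fragment pileup at summits and set to 1 in WT 1, was 0.694 in WT 2, 1.102 in the first Mapk8-KO library and 0.612 in the other. The replicate 1 libraries were thus the deeper ones in both genotypes, and the number of reads per library is unknown from these lists. Of 10 keratinocyte markers, 6 to 10 had a peak over a TSS in each library. Krt5 and Col17a1 lacked one in both replicate 2 libraries, Sfn in all libraries but Mapk8-KO 1, and Krt14 in WT 2. None of 6 immune markers (Ptprc, Cd3e, Cd207, Lyz2, Cd74, Csf1r) had one in any library. Of 4 markers each, endothelial genes had 0 or 1 (Kdr), fibroblast genes 0 or 1 (Pdgfra) and melanocyte genes 1 (Mitf). Peak lists do not show whether exons of Mapk8 were deleted.

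All 45 very broad regions were called in all 4 libraries, but most passed 2000 bp in few of them. A peak over 2000 bp was present in 1 library at 24 regions, in 2 libraries at 9, in 3 libraries at 7 and in all 4 libraries at 5. By library, the lists held 34, 12, 26 and 11 such peaks. The deeper library of each genotype had more of them, and 43 of the 45 regions passed 2000 bp in at least 1 replicate 1 library. WT 1 alone contributed 16 regions and Mapk8-KO 1 alone 6, against 1 for WT 2 alone and 1 for Mapk8-KO 2 alone. Without WT 1, 29 regions would have been found. Per 10000 intervals, the 4 libraries had 4.86, 2.19, 3.74 and 2.21, so the replicate 1 libraries were also higher per interval. The part of depth in these counts was not tested.

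Peaks over 2000 bp numbered 23 ± 15.6 per WT library and 18.5 ± 10.6 per Mapk8-KO library (mean ± SD of 2 libraries, not tested because width chose the members). The difference of 4.5 peaks was smaller than the spread between replicates, and it reversed to −6.5 without WT 1 and to −3 without Mapk8-KO 2. Peaks over 2000 bp occurred in both genotypes at 21 regions, in WT libraries only at 17 and in Mapk8-KO libraries only at 7. No region had one in both libraries of a genotype and in none of the other.

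The threshold divided a continuous range of widths. The 3 peaks just over it were 2003 bp (Sh3glb1, WT 1), 2004 bp (Mex3b, WT 1) and 2005 bp (near Rps18-ps2, WT 2). Just under it were peaks of 1999 bp (Lamc1, WT 1) and 1994 bp (Mepce, Mapk8-KO 1). Fold enrichment, the deposited ratio of the fragment pileup at the summit to the local background, was 8.48, 7.14 and 7.57 for the former and 8.17 and 7.51 for the latter. Lamc1 and Mepce were not members.

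In libraries where a region did not pass 2000 bp, much of the same ground was covered by a shorter peak or by several. At 41 of the 45 regions, peaks covered at least 50% of the region in all 4 libraries, and the lowest value was 41.8%. Over all regions, also those whose edges a library's own wide peak set, peaks covered a median of 99.6, 81.2, 98.1 and 77.9%. This median was 90.4 ± 13% over WT and 88 ± 14.3% over Mapk8-KO libraries (mean ± SD of 2, a description). A single peak stood at 38, 23, 32 and 21 of the regions, and no region held more than 3 peaks in a library. The replicate 2 libraries were again the more broken up.

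**Figure D1:**
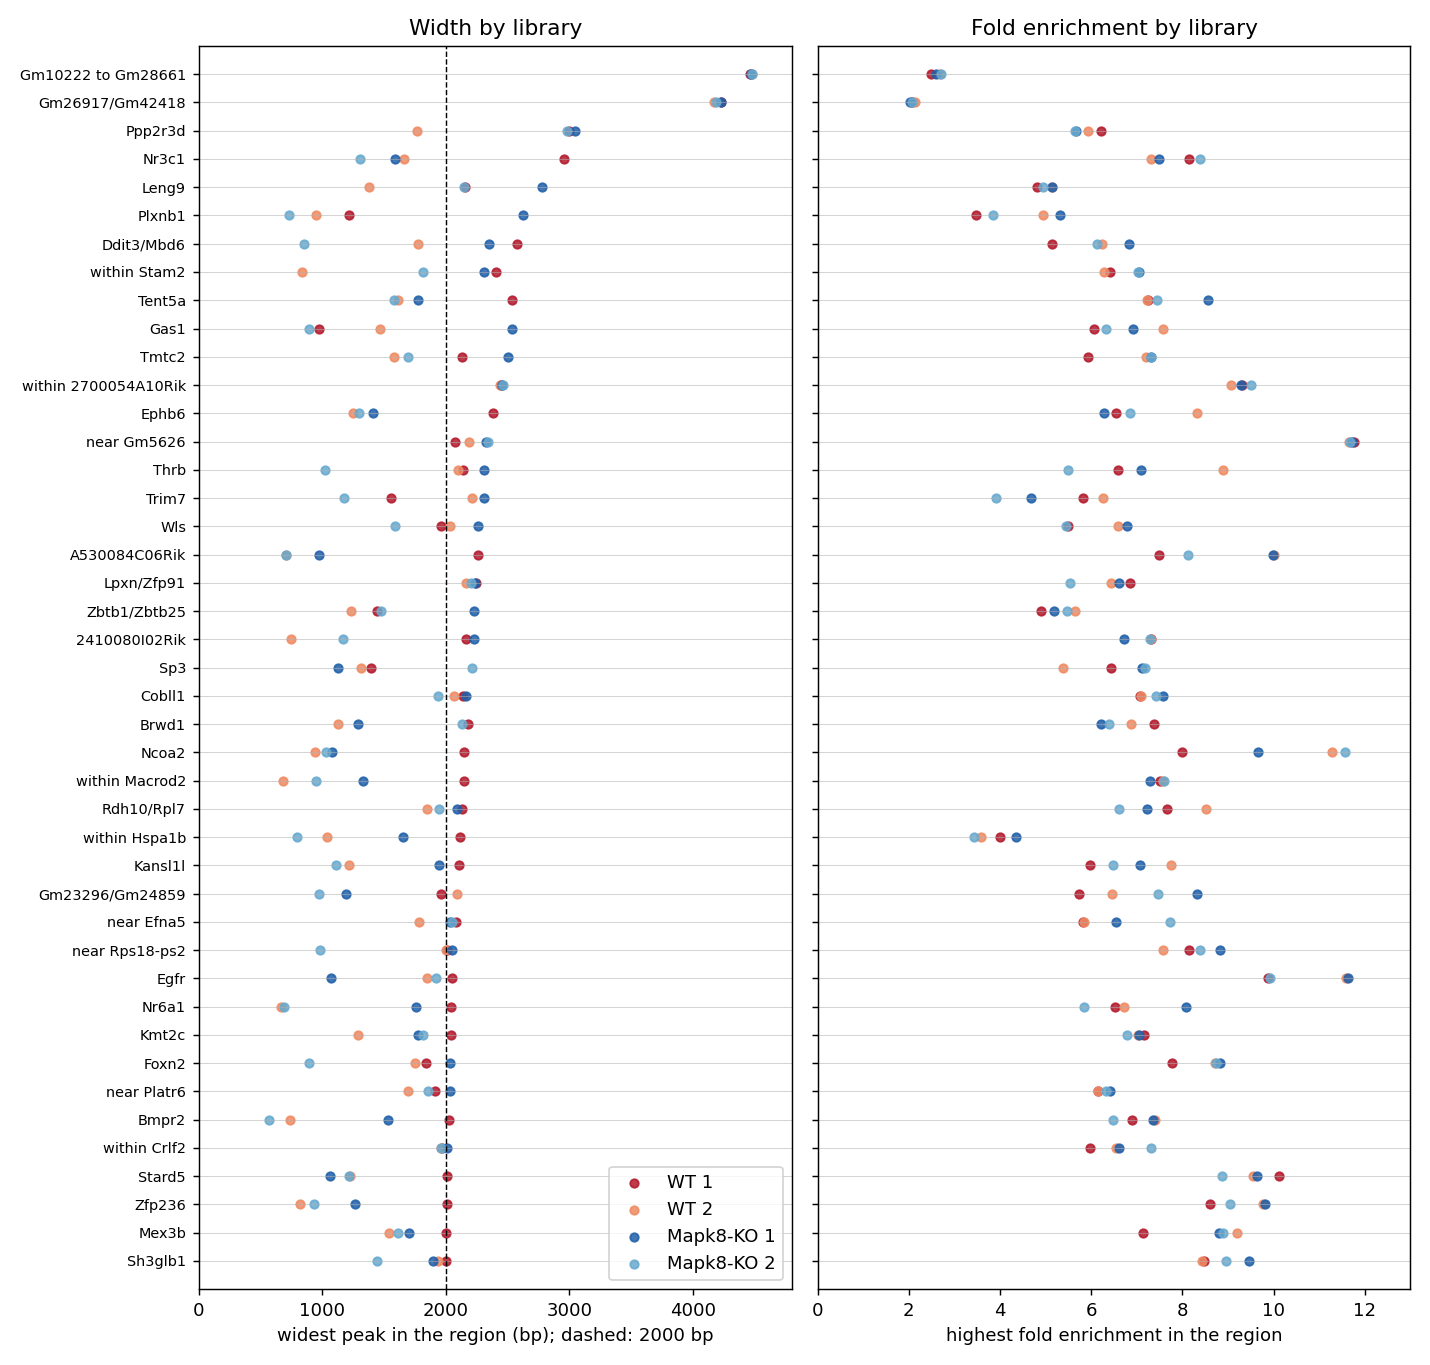
Width of the widest peak (left, bp) and highest fold enrichment (right, no unit) in 43 of the regions, 1 row a region ordered by merged width, 1 point a library. The dashed line is the 2000 bp threshold. The 2 widest regions keep widths of 4172 to 4477 bp in all libraries, with folds of 2.02 to 2.70.

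The regions were wide, but not high in fold enrichment. Their median fold enrichment was 6.86, 7.09, 7.06 and 7.19, against medians of 7.25, 7.67, 7.10 and 7.40 over all peaks of the lists. As percentiles among all peaks of each list, the members had a median of 45.9, 42.4, 49.6 and 47.5. Over WT libraries this percentile was 44.1 ± 2.47 and over Mapk8-KO libraries 48.5 ± 1.48 (mean ± SD of 2; two-sided exact permutation test, p = 0.33, the smallest possible). The fragment pileup at the summit, in contrast, had a median of 97, 68, 122 and 63 fragments over the members, where the medians of whole lists were 33, 28, 36 and 26.

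A TSS of the GENCODE basic annotation lay inside 36 of the 45 regions (80%, Wilson 95% interval 66.2 to 89.1%, counting error only), against 16.0% of the other atlas regions. A wider window holds a TSS more easily, and the part of width was not tested. Coding genes started in 32 regions, which covered the starts of 36 coding genes. Another 4 regions held only noncoding starts, and 9 held none. TSSs on both strands lay in 14 of the 36 regions (38.9%), and in 15.7% of the other regions with a TSS. Pairs of coding genes shared 4 regions, namely Rdh10 with Rpl7, Ddit3 with Mbd6, Zbtb1 with Zbtb25 and Lpxn with Zfp91.

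Around the 32 coding starts, 1 per region, the open stretch reached a median of 1096 bp upstream and 1271 bp downstream, compared with 337 and 405 bp at 11820 other regions with a coding TSS. It reached further downstream at 17 of the 32 (53.1%), and at 57.3% of the others. Which side was longer varied from gene to gene. Nr3c1 reached 2048 bp upstream and 907 bp downstream, Ncoa2 1963 and 182 bp, and Thrb 1770 and 540 bp. At the other end, Trim7 reached 264 bp upstream and 2042 bp downstream, Leng9 775 and 2015 bp, and Wls 276 and 1996 bp. The strongest summit stood within 500 bp of the TSS at 24 of 32 regions (75.0%), whereas it did so at 96.7% of the others. The summits of Trim7, A530084C06Rik, Zfp236 and Ephb6 lay 1708, 1169, 1139 and 1009 bp downstream, and those of Plxnb1 and Mex3b at −1310 and −1051 bp, upstream of it.

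**Figure D2:**
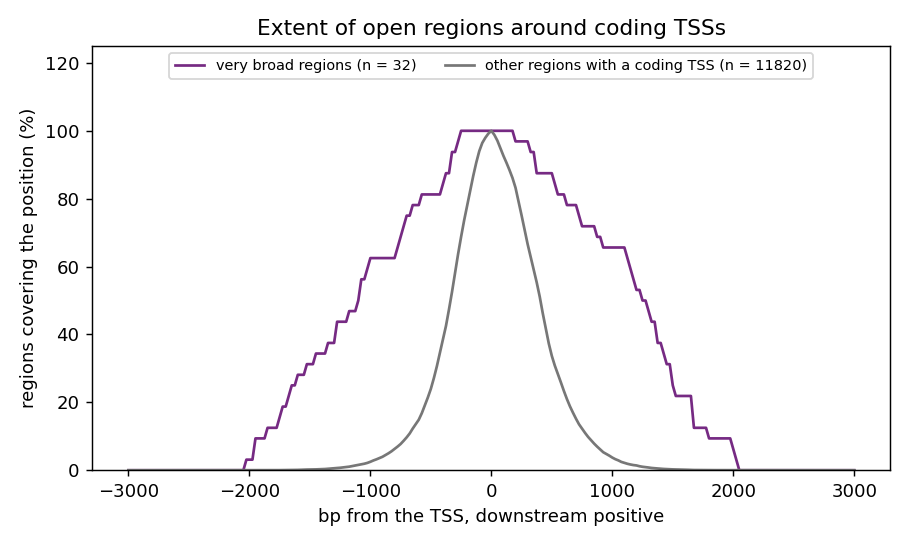
Percent of regions that cover each position (vertical axis) by distance from the coding TSS in bp (horizontal axis, downstream positive), for very broad regions (n = 32) and for other regions with a coding TSS (n = 11820). At 1000 bp upstream 62.5% of the very broad regions and 2.49% of the others still cover the position.

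The 10 widest regions are described with their values in every library. The widest, at chr1:24611624-24616100, matched mitochondrial DNA with 99.95% identity along its whole 4477 bp. Its widest peaks were 4463, 4475, 4469 and 4477 bp and its folds 2.48, 2.69, 2.60 and 2.70. At its summit 20339, 19347, 23441 and 19445 fragments piled up, more than at any other member. The names of the deposited peak lists state that mitochondrial reads had been removed. The region thus had an extreme pileup and a fold among the lowest 0.3% of peaks in every list.

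The region of Gm26917 and Gm42418 (chr17:39843041-39847283), a copy of ribosomal DNA by RefSeq's annotation of an overlapping Rn18s pseudogene, had similar features. Its peaks were 4226, 4172, 4228 and 4187 bp wide, its folds 2.08, 2.14, 2.02 and 2.07, and its pileups 1377, 1121, 1751 and 1144 fragments. A stretch of 603 bp had a copy elsewhere in the genome with 99.0% identity. Both regions varied little between libraries in width.

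Ppp2r3d (chr9:124422845-124425893) was the widest promoter of a coding gene, with peaks of 2997, 1763, 3049 and 2983 bp and folds of 6.22, 5.94, 5.67 and 5.65. It lay near the end of chromosome 9. Only WT 2 broke the region into 2 peaks. Nr3c1, which encodes the glucocorticoid receptor, the target of steroid creams (chr18:39488939-39491894), had peaks of 2956, 1659, 1586 and 1308 bp. Its folds were 8.14, 7.31, 7.48 and 8.38. It was very broad in WT 1 alone, and in the other libraries 2 or 3 peaks shared 66.1 to 79.2% of the stretch.

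Leng9 (chr7:4148359-4151149) had peaks of 2156, 1379, 2775 and 2150 bp and folds of 4.81, 5.13, 5.15 and 4.94. Plxnb1 (chr9:109093915-109096540) passed the threshold in Mapk8-KO 1 alone, with 1218, 949, 2626 and 727 bp and folds of 3.47, 4.94, 5.32 and 3.84. Its region also covered an exon of the antisense gene Gm7628. Ddit3, which encodes the stress factor CHOP, and its neighbour Mbd6, a methyl-CpG-binding domain protein, shared chr10:127288806-127291379. That region had peaks of 2574, 1772, 2350 and 853 bp and folds of 5.13, 6.24, 6.82 and 6.13.

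The remaining ones among the 10 widest were Stam2, Tent5a and Gas1. Tent5a, a noncanonical poly(A) polymerase (chr9:85326103-85328640), had peaks of 2538, 1615, 1772 and 1584 bp and folds of 7.25, 7.22, 8.57 and 7.44. Gas1, a membrane-anchored co-receptor for Hedgehog ligands (chr13:60176179-60178715), had 976, 1464, 2537 and 892 bp and folds of 6.06, 7.58, 6.91 and 6.33. The peak of Gas1 was thus unbroken in 1 library and split into 2 or 3 in the others.

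**Figure D3:**
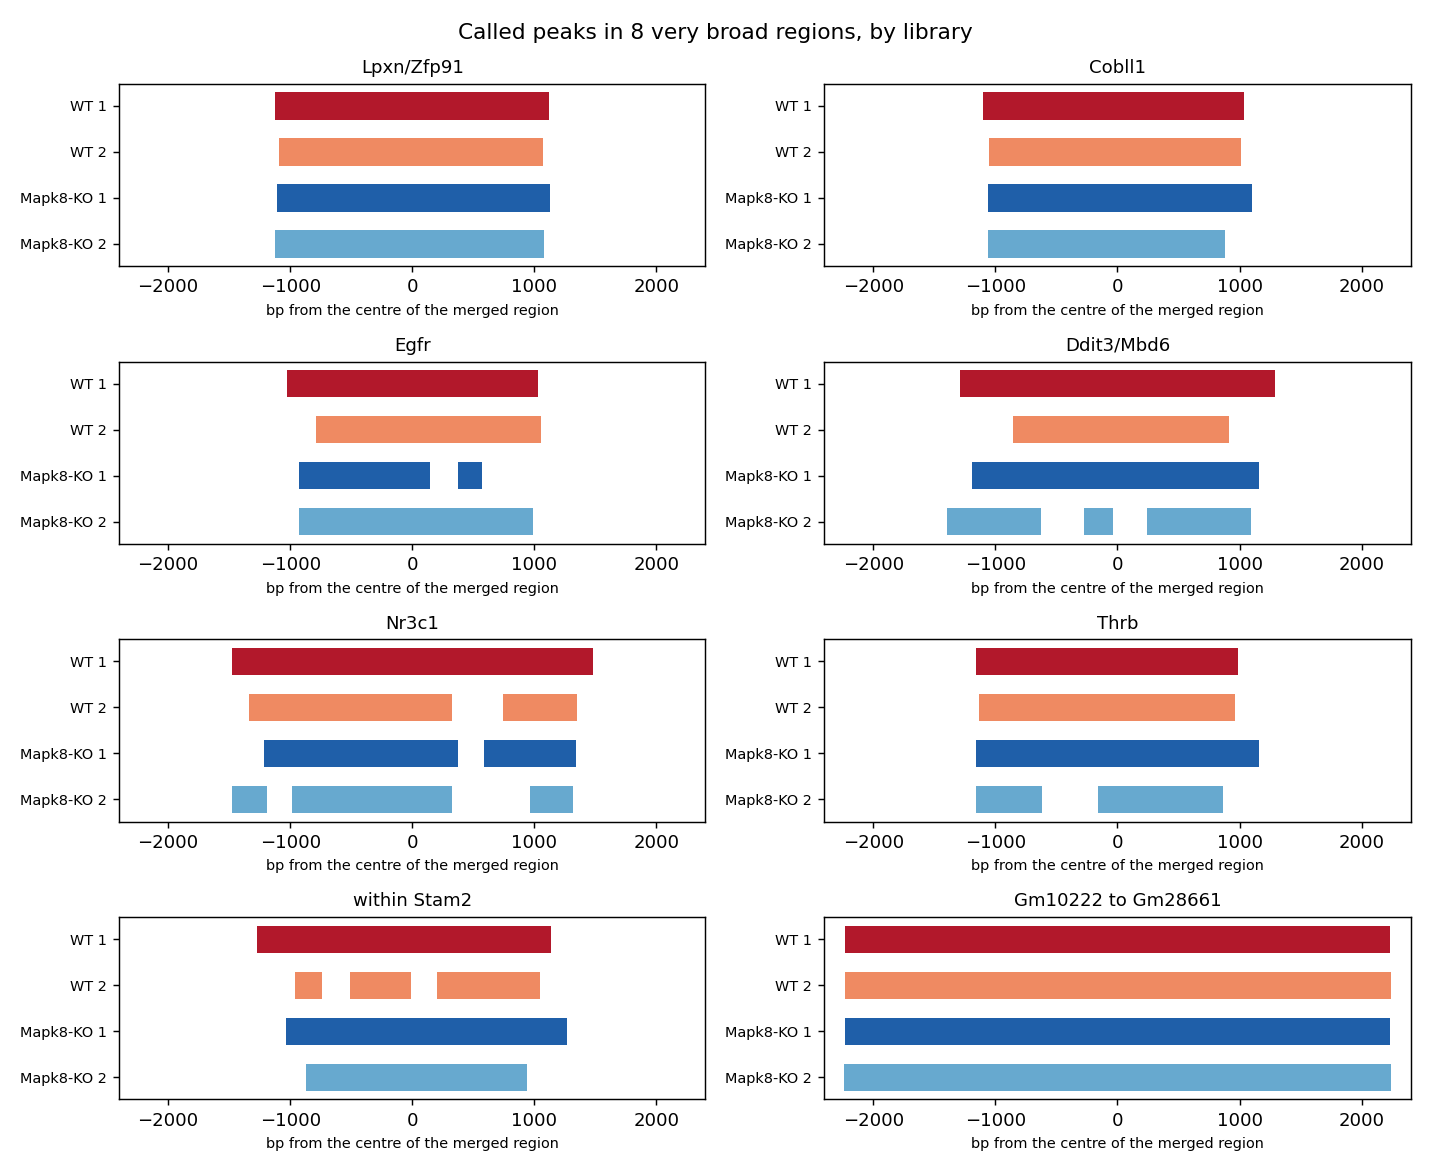
Called peaks (bars) in 8 regions, 1 row a library, by distance in bp from the centre of the merged region. Lpxn/Zfp91 is 1 peak of about equal width in all libraries, Egfr is split in Mapk8-KO 1 alone, and Nr3c1 is unbroken in WT 1 alone.

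Receptors and their signalling partners were among the genes covered. The Egfr region (chr11:16751830-16753882) held the first exon of the receptor for amphiregulin and HB-EGF. Its peaks were 2053, 1844, 1073 and 1918 bp wide, and its folds of 9.87, 11.58, 11.62 and 9.91 stood at percentiles 73.2 to 83.6 of the lists. In Mapk8-KO 1, the deepest library, the stretch was covered by 1 peak of 1073 bp and another of 194 bp with a fold of 2.24. Folds overlapped between genotypes. Bmpr2, a receptor of bone morphogenetic proteins, passed the threshold in WT 1 alone (2024, 736, 1534 and 571 bp, folds 6.89, 7.39, 7.35 and 6.48). Ephb6, an Eph receptor without kinase activity, also did so in WT 1 alone, at 2384 bp. Wls, which carries Wnt ligands to the cell surface, had 1962, 2034, 2258 and 1588 bp and folds of 5.50, 6.58, 6.79 and 5.44.

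Lpxn, a focal adhesion adaptor, and Zfp91, a zinc finger protein, start on opposite strands in chr19:12794656-12796909. There the peaks were 2247, 2166, 2233 and 2205 bp, and the folds 6.86, 6.43, 6.60 and 5.54. This was the only region over 2000 bp in all 4 libraries that was not of repeated or multi-copy sequence. Lpxn/Zfp91 and the other regions that fall outside the naming rule were chosen after their values were seen.

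Nuclear receptors and a coactivator of them formed another recognisable set. Beside Nr3c1, Thrb (chr14:17659126-17661436) had peaks of 2141, 2101, 2311 and 1023 bp and folds of 6.59, 8.89, 7.09 and 5.50. Nr6a1, an orphan receptor, had 2042, 667, 1759 and 690 bp, with folds of 6.53, 6.72, 8.07 and 5.84. Ncoa2, the coactivator, had 2146, 942, 1083 and 1027 bp, with folds of 8.00, 11.27, 9.65 and 11.57. Thrb passed 2000 bp in 3 libraries, while Nr6a1 and Ncoa2 did so in WT 1 alone. No list of nuclear receptors was tested, and the set was noticed after its members were known.

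Transcription and chromatin factors were also covered. Sp3, a factor that binds GC boxes, was very broad in Mapk8-KO 2 alone (1398, 1310, 1130 and 2209 bp). Kmt2c, a methyltransferase of histone H3 lysine 4 at enhancers, had 2041, 1286, 1778 and 1812 bp and folds of 7.15, 7.03, 7.05 and 6.78. Zbtb1 and Zbtb25, zinc finger factors on opposite strands, shared a region that was very broad in Mapk8-KO 1 alone (1441, 1235, 2232 and 1474 bp, folds 4.89, 5.65, 5.18 and 5.46). Brwd1, a bromodomain protein, had 2180, 1131, 1289 and 2134 bp, so that 1 library of each genotype passed 2000 bp. Foxn2, a forkhead factor, had 1842, 1752, 2036 and 893 bp, and Zfp236, a zinc finger protein, 2007, 817, 1269 and 937 bp. The widths of Kansl1l, a relative of a subunit of the NSL acetyltransferase complex, were 2106, 1218, 1946 and 1112 bp. The narrowest peak of a region was in a replicate 2 library for all of this set but Sp3, whose narrowest was in Mapk8-KO 1.

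The other coding genes covered were Cobll1, Sh3glb1, Mex3b, Stard5, Tmtc2, Trim7, A530084C06Rik and the pair Rdh10 and Rpl7. Rdh10 makes retinaldehyde from retinol, and Rpl7 is a protein of the large ribosomal subunit. Their shared region (chr1:16104144-16106271) had peaks of 2128, 1845, 2087 and 1948 bp and folds of 7.67, 8.51, 7.22 and 6.60. Both genes were covered by 1 unbroken peak in every library. Cobll1 was over 2000 bp in 3 libraries (2138, 2069, 2166 and 1941 bp, folds 7.07, 7.09, 7.57 and 7.41). Tmtc2, an enzyme of the endoplasmic reticulum, had 2135, 1581, 2502 and 1693 bp. Sh3glb1, which encodes endophilin B1, had 2003, 1934, 1894 and 1440 bp and folds of 8.48, 8.43, 9.45 and 8.95. Stard5, a lipid transfer protein, had 2008, 1222, 1061 and 1214 bp and high folds of 10.11, 9.55, 9.64 and 8.86. Mex3b, an RNA-binding protein, had 2004, 1541, 1702 and 1616 bp. The region with the start of A530084C06Rik (chr13:31557841-31560097) lay inside the body of Foxq1, a forkhead gene, and had 2257, 709, 973 and 705 bp with folds of 7.48, 10.01, 9.98 and 8.12. The noncoding gene 2410080I02Rik, whose region held no coding start, had 2161, 748, 2232 and 1167 bp.

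Gene lists relevant to skin and to JNK signalling gave few covered promoters. Of the genes of each list with a TSS in any peak, 1 of 10 genes of the EGF receptor family and its ligands (Egfr) and 1 of 78 cytosolic ribosomal protein genes (Rpl7) were covered by a very broad region. Over all coding genes the count was 36 of 11984 (0.3%). No gene was covered on the lists of immediate-early and AP-1 genes (0 of 27), MAP kinase feedback regulators (0 of 15), NF-kB subunits and feedback (0 of 15), Notch, Wnt and TGF-beta genes (0 of 29) or keratins and adhesion genes (0 of 24). The same held for developmental homeobox genes (0 of 18), histone genes (0 of 66) and abundant long noncoding RNAs (0 of 7). With 1 gene in each case, these counts describe single promoters and not the lists.

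Regions without a TSS fell into several kinds. Within 131 bp of a TSS lay the region of Crlf2, a cytokine receptor chain (chr5:109556793-109558805), and within 129 bp that of Efna5, an ephrin ligand (chr17:62881446-62883529). The Efna5 region had peaks of 2082, 1787, 2037 and 2047 bp and folds of 5.83, 5.85, 6.55 and 7.73. The Crlf2 region was 1971, 1958, 2013 and 1963 bp wide, the narrowest range of any region outside repeats. The region within Hspa1b, a stress-inducible HSP70 gene, was 1098 bp from its TSS and had folds of 3.99, 3.59, 4.36 and 3.42. A copy of 1103 bp with 98.9% identity lay on the same chromosome. By its methods the study discarded reads that mapped to several places, and the effect on this region was not tested.

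Away from promoters, the region within an intron of Macrod2 (chr2:141264777-141266920) had peaks of 2144, 686, 1332 and 951 bp and folds of 7.51, 7.57, 7.28 and 7.60. Its CpG ratio, observed over expected, was 0.10. An intergenic region 10484 bp from Rps18-ps2 (chr4:8928694-8930775) had 2010, 2005, 2047 and 983 bp, and was the only one of the 9 with an AP-1 word at its summit. Another intergenic region lay 1640 bp from Platr6 and had 1911, 1695, 2035 and 1860 bp.

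Tandem repeats made up the remaining 3. In Stam2, an array of 48.3 units of 54 bp spanned 2610 bp (chr2:52696450-52699059) and filled 99.4% of the region (chr2:52696436-52698975). Peaks there were 2409, 837, 2306 and 1812 bp, folds 6.41, 6.28, 7.04 and 7.03, and pileups only 25, 15, 25 and 23 fragments. In the region near Gm5626 (chr13:74528483-74530823), 99.6% of bases were masked as repeats and 73.9% lay in CAGCA on either strand. Its folds of 11.77, 11.65, 11.71 and 11.68 were nearly constant, and its peaks were 2077, 2185, 2328 and 2341 bp. The region within 2700054A10Rik (chr17:13550688-13553153) was 97.8% masked with 68.3% of bases in the same word, and had peaks of 2448, 2439, 2454 and 2466 bp and folds of 9.30, 9.07, 9.29 and 9.51.

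Repeated or multi-copy sequence thus marked 6 of the 45 regions: the mitochondrial-like and ribosomal-like regions, the 3 tandem repeats and Hspa1b. Of the 5 regions over 2000 bp in all 4 libraries, 4 were among these 6, against 1 of the other 39. Without the 6, 87.2% of regions held a TSS. Regions that were over 90% masked could not be searched for copies.

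Base composition of the very broad promoters was close to that of other promoters. The median CpG ratio was 0.81 in the 36 regions with a TSS and 0.75 in 13235 other regions with one, and the GC content 62.0 and 61.9%. Regions without a TSS had a CpG ratio of 0.34 (n = 9), and other regions without one 0.21. Within 100 bp of the strongest summit, GGGCGG on either strand was found in 28 of 36 very broad promoters (77.8%, Wilson 95% interval 61.9 to 88.3%) and in 60% of other regions with a TSS. Per kb of the whole region the order was the other way, at 3.78 and 3.86 matches. The AP-1 word TGAGTCA, bound by Fos and Jun proteins, stood at the summit of 8.33% (interval 2.87 to 21.8%) of very broad promoters, 5.96% of other promoters and 27.1% of other regions without a TSS. NF-Y (CCAAT) was at 36.1 and 30.5% of very broad and other promoters, the NRF1 motif at 2.78 and 7.39%, and ETS (CCGGAAGT) at 5.56 and 5.46%. CREB/ATF (TGACGTCA), the p53 family motif and the CArG box were at no summit of the 36, where counting error allows up to 9.64% (Wilson). All words were searched on both strands. A CArG box can contain CCAAT, and the unspecified bases of the p53 family motif can hold CCAAT or GGGCGG.

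Whether fold enrichment differed between genotypes was tested with limma over 40159 regions called in all 4 libraries. All 45 members were tested and 0 passed a Benjamini-Hochberg adjusted p of 0.05, where 0% of all regions did. Regions missing from any of the lists were left out of this test. The study itself reports differentially accessible regions in both directions from a DESeq2 test of read counts, which was not run here. At an unadjusted p under 0.05 stood 1 member (2.22%) and 2731 of all regions (6.8%). The median log2 difference, WT minus Mapk8-KO, was −0.07 over the members and −0.02 over all regions. The value for the members rested on single libraries: it was 0.02 without WT 1, which turns its sign, −0.16 without WT 2, −0.12 without Mapk8-KO 1 and −0.03 without Mapk8-KO 2. Both WT libraries lay above both Mapk8-KO libraries at 5 members (11.1%), beside 16.2% of all regions, and below them at 9 (20%), beside 19.5%. The shares of members were thus near those of all regions in the latter direction and somewhat under in the former.

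The member with the lowest p was Trim7, an E3 ubiquitin ligase (chr11:48837201-48839507), with folds of 5.81 and 6.25 in WT and 4.69 and 3.92 in Mapk8-KO. The groups did not overlap, and the log2 difference was 0.45 (SE 0.22; limma adjusted p = 0.735). Its width did not follow, since the peaks of 2211 and 2307 bp were in WT 2 and Mapk8-KO 1. Among members with both WT libraries above both Mapk8-KO libraries, Rdh10/Rpl7 (0.19, SE 0.21) and Brwd1 (0.14, SE 0.21) came next. Thrb had a difference of 0.26 (SE 0.23), but its libraries overlapped. In the other direction, the region of the small nuclear RNA genes Gm23296 and Gm24859 (chr12:52602963-52605051) had folds of 5.74 and 6.45 in WT and 8.32 and 7.47 in Mapk8-KO. Its log2 difference was −0.41 (SE 0.21; limma adjusted p = 0.762), although its only peak over 2000 bp was in WT 2. The Efna5 region followed with −0.32 (SE 0.22) and Sp3 with −0.32 (SE 0.22), where folds were 6.43, 5.39, 7.12 and 7.19. For Egfr the difference was −0.04 (SE 0.18).

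**Figure D4:**
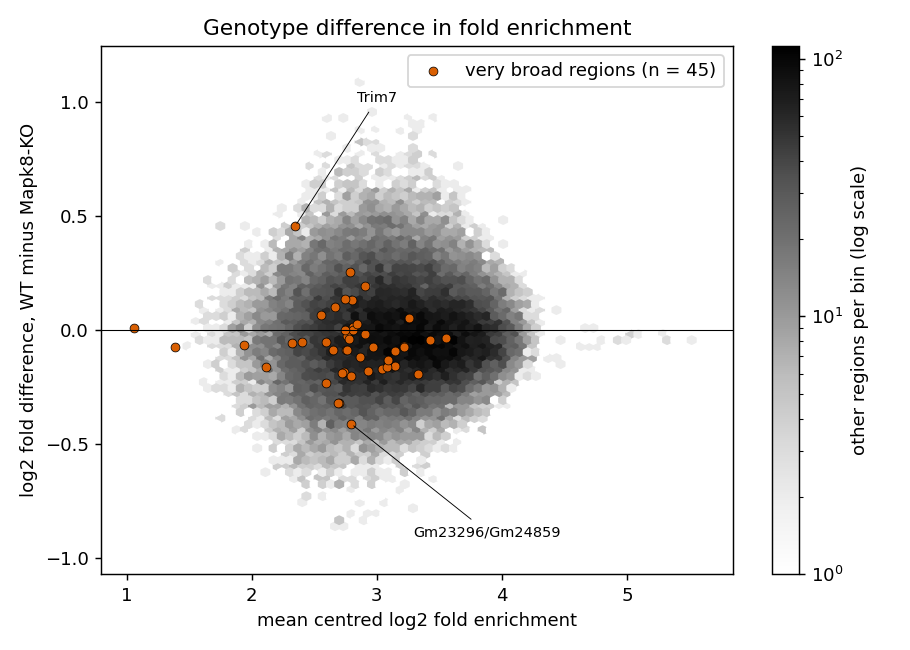
Log2 difference in fold enrichment, WT minus Mapk8-KO (vertical axis), by mean centred log2 fold enrichment (horizontal axis) for 40159 regions called in all 4 libraries. The 45 very broad regions (points) lie within the spread of the other regions (grey bins, log colour scale), with Trim7 at 0.45 and Gm23296/Gm24859 at −0.41 as the extremes.

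The pileup at the summit, recovered from the deposited values and centred for depth, gave another view of the same regions and was added after the data had been seen. With it, limma called 243 of 40159 regions (0.605%) and 1 member, within 2700054A10Rik. Its pileups were 387 and 255 fragments in WT and 589 and 422 in Mapk8-KO before centring, and the log2 difference was −0.69 (SE 0.18; limma adjusted p = 0.0312). The other CAGCA repeat, near Gm5626, had 335, 242, 490 and 365 fragments and a difference of −0.59 (SE 0.17; limma adjusted p = 0.0761). In fold enrichment the differences of the same 2 regions were −0.07 (SE 0.19) and −0.04 (SE 0.16), so the call rested on the measure used. Of all members, 8 (17.8%) had an unadjusted p under 0.05, beside 11.3% of regions. Both Mapk8-KO libraries lay above both WT libraries at 20 members (44.4%), beside 24.6% of regions, and the reverse held at 2 (4.44%), beside 17%. By fold enrichment the same shares of members were 20% and 11.1%. The members were chosen by width, 16 of them through WT 1 alone, and the part of this choice was not tested. No fit of pileup without each library was run.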

How the data were processed

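ATAC-seq peak lists of 4 libraries (2 WT, 2 Mapk8-KO) were used. According to the methods of the study, read pairs were aligned to mm10 with Bowtie2, multiply or poorly mapped reads were discarded, and MACS2 called peaks on fragments. The methods mention no control sample, and each library has its own deposited list. Versions of these tools for ATAC-seq are not given in the sources used here, nor is a shift of read ends for Tn5. Without a control, MACS2 takes the local background from the library itself, and fold is then relative to signal nearby. The deposited columns are start, end, a score derived from q, a fold enrichment ratio of summit pileup over background, −log10 p and −log10 q values, and the summit's offset from the start. The highest q in any deposited list was 0.0097, below the cut-off stated by the study. The stated call asked for every summit of a peak, yet no interval was listed more than 1 time. Read counts were not used here, so the study's DESeq2 test was not run.

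Peaks wider than 2000 bp were merged at 1 bp overlap. A region's fold in a library was the highest of the peaks overlapping it, and its width that of the widest such peak, which can run past the region's edge. A wide peak carries a single fold, and whether folds compare between unbroken and split regions was not tested. TSSs came from GENCODE vM21 (basic). Pileups were solved from fold and −log10 p, and at least 99.996% were whole within 0.05 of a fragment. Log2 fold was centred on each library's median and tested with limma 3.58.1 (R 4.3.3) with a variance trend, after a test on simulated data. Copies were searched with BLAST 2.17.0 at 95% identity or more over at least 500 bp, CpG and motifs with Python 3.11.15. Alternatives tried were other widths, thresholds and scalings, a replicate block, and fits without each library.

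Regions named by rule were the 10 widest, those with a TSS of a listed gene, the 5 widest without a TSS, the 3 largest non-overlapping fold differences in each direction, and peaks next to the threshold. The members and lists were chosen with earlier results of these data known. Of the 45 regions, 2 are counted but not reported singly here.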

Additional observations from a re-analysis of the deposited data

How the results depend on the processing

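Of 62 alternatives, 11 moved a count by over 1.5 times or a share past its 95% interval, 4 turned the sign of a difference, and 47 did neither. The members' median log2 fold difference of −0.0711 ranged from −0.163 to 0.0238 on leaving out each library, changing sign without WT 1, and was −0.183 by pileup. The number of very broad regions was 573 with a threshold of 1500 bp, 10 with 2500 bp and 21 when at least 2 libraries had to pass 2000 bp. Leaving out each library gave 29 to 44, the lowest without WT 1. The share of regions that hold a TSS rose to 100% at 2500 bp. The difference in peaks over 2000 bp per library, WT minus Mapk8-KO, was 40 at 1500 bp, −1 at 2500 bp and −6.5 to 15.5 on leaving out each library. The causes were not tested. Limma called 0 regions for a fold difference, and 1 to 823 on leaving out each library (1 without WT 1, 9 without WT 2, 823 without Mapk8-KO 1 and 52 without Mapk8-KO 2), where the lone library of a genotype is assumed to vary like the others. No member was called in those fits. The summit pileup, chosen after seeing the data, gave 243 calls and 1 among the members.

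Libraries of both genotypes carry replicate numbers 1 and 2. The deviations of same-numbered libraries correlated across 40159 regions at 0.102, which with 2 numbers does not show pairing. With the number as a replicate block, limma called 0 regions (3498 at an unadjusted p under 0.05) and 0 members, and the difference in wide peaks stayed at 4.5. The replicate 2 libraries, which were the shallower ones, had 12 and 11 peaks over 2000 bp against 34 and 26, and the part of depth was not tested.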
